A study of Mus musculus with 11 samples.

Results

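The transcripts of the AMPK beta subunits were described here in ribosome-associated RNA from the mouse hippocampus after sleep deprivation. *Prkab1* (uc008zew.1) and 2 transcripts of *Prkab2* (uc008qpb.1, with the full coding part, and uc008qpc.1, a retained intron form) were taken by their UCSC identifiers, 3 of the 63244 transcripts in the deposited counts. They were chosen because the difference between sleep deprived and control libraries was already known, so that difference is given as a description without a test. Male CaMKII-Cre:Ribotag mice aged 2-3 months were either kept awake for 5 h from lights on by gentle handling (SD, n = 6 libraries) or left undisturbed and killed at the same time (NSD, n = 5 libraries). Mice of both groups had the same handling beforehand and carried the same alleles: a Cre recombinase driven by the CaMKIIα promoter and a Cre-dependent HA-tagged ribosomal protein Rpl22. Tagged ribosomes were immunoprecipitated from whole hippocampal homogenate, with 2 mice pooled in each library, so the spread between libraries is that between pools.

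AMPK is the kinase that senses a fall in cellular energy. It is a heterotrimer of a catalytic alpha subunit, a scaffolding beta subunit and a gamma subunit that binds adenine nucleotides. The beta subunit holds the complex together, carries a domain that binds glycogen, and exists as beta1, encoded by *Prkab1*, and beta2, encoded by *Prkab2*. Each complex contains a single beta subunit. AMPK also phosphorylates the clock protein CRY1, and in the brain it takes part in energy balance.

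*Prkab1* lies on chromosome 5 of mm10 (GRCm38), from 116013586 to 116024508 on the minus strand, and *Prkab2* on chromosome 3, from 97658193 to 97673812 on the plus strand. Structures were read from GENCODE vM21, from the models with the transcript names given for the *Prkab2* identifiers and from 1 of the 2 *Prkab1* models with the full coding part, taken for uc008zew.1 by gene name only. The other has the same 270 codons in 8 exons and 2026 exonic bases, 46 of them in no other transcript of the gene. *Prkab1* has 7 exons and 2089 exonic bases, and *Prkab2* uc008qpb.1 has 8 exons and 5006 exonic bases. Their coding parts are almost equal in length, 270 codons in *Prkab1* and 271 in *Prkab2*. The part after the stop codon differs, with 1063 bases in *Prkab1* and 4007 in *Prkab2*. *Prkab2* uc008qpc.1 is annotated as a retained intron transcript without a coding part. It has 3633 exonic bases in 3 exons, and 3581 of these are also exonic in *Prkab2* uc008qpb.1, which leaves 52 bases of its own against that transcript. Conversely, 1425 bases of *Prkab2* uc008qpb.1 lie outside *Prkab2* uc008qpc.1. Reads that could not be assigned to 1 transcript were not counted. By these models many exonic bases are shared, and would give counts only where the rest of the read told the transcripts apart. Set against all GENCODE transcripts of the same gene, 707 bases of *Prkab2* uc008qpb.1, 52 of uc008qpc.1 and only 12 of *Prkab1* lay in no other transcript. The UCSC models used for counting were not examined here and may differ. A gene on the opposite strand overlaps each locus, *Gm14508* with 0 exonic bases shared with *Prkab1* and *Gm17651* with 9 shared with *Prkab2*. For this reason the levels of different transcripts were not compared per length, and a ratio between them is used only to compare libraries.

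**Figure D1:**
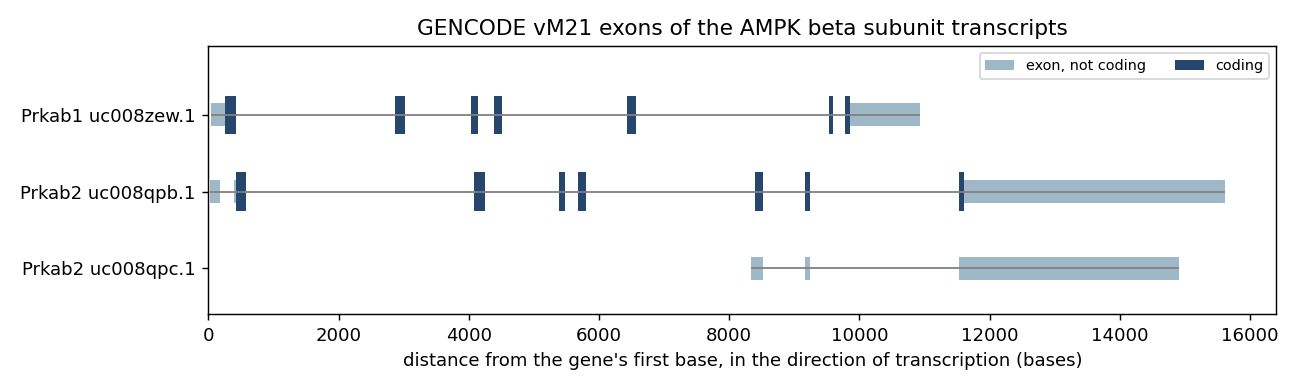
Exons of *Prkab1*, *Prkab2* uc008qpb.1 and *Prkab2* uc008qpc.1 in GENCODE vM21, plotted as distance in bases from the first base of the gene in the direction of transcription; thick dark boxes are coding and thin pale boxes are not. The 3 exons of *Prkab2* uc008qpc.1 lie almost wholly on those of *Prkab2* uc008qpb.1, and the coding parts of *Prkab1* and *Prkab2* uc008qpb.1 each have 7 blocks.

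The upstream sequence of each gene is printed so that the regions before 2 genes of the same family, whose transcripts moved apart, can be compared. They are RefSeq promoter sequences (GRCm38.p6) on the strand of the gene, cut at the first annotated base of the gene, at chr5:116024509-116024678 for *Prkab1* and chr3:97657962-97658192 for *Prkab2*. Capitals mark the GC box GGGCGG on either strand.
Prkab1: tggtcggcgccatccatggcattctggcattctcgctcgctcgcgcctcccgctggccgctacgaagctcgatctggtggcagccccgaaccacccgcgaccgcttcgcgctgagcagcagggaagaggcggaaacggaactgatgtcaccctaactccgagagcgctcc
Prkab2: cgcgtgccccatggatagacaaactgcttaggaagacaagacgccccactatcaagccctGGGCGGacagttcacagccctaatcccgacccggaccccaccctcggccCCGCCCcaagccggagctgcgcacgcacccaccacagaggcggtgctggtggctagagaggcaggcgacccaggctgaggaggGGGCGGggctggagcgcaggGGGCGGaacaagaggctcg
In the whole 300-base window around the RefSeq start site, *Prkab2* held 5 GC boxes, 4 of them in the printed part, and *Prkab1* held 0. At least 1 GC box was present in 35.7% of 32851 such windows. Searched on both strands, the E-box CACGTG (in 7.15% of windows), the CRE TGACGTCA (1.79%), its half-site TGACG, which the CRE contains (20.8%), the D-box TTATGTAA (0.938%), the nuclear receptor half-site AGGTCA (16.3%) and the ETS site CCGGAAGT (3.89%) were absent from both windows. The printed parts were similar in base composition, with 65.9% G or C for *Prkab1* and 68.4% for *Prkab2*.

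Transcripts collected 22074914 to 25984063 reads in the NSD libraries and 24139337 to 29549339 in the SD libraries, ranges that overlapped. Levels are given as CPM (library-size scaled counts, here with upper-quartile factors), and group means as the mean ± standard deviation over the 5 NSD or the 6 SD libraries. Reads outside annotated transcripts took 10.9% to 27.6% of an NSD library and 9.97% to 21.1% of an SD library, with the highest shares in NSD2 and SD1. NSD2 also stood apart in its share of multiply aligned reads, 12.3% against 5.88% to 6.23% elsewhere. The libraries were checked against markers of the labelled neurons and of other cells, but few cell type markers had a named transcript. Those of GABAergic neurons (6 transcripts of 4 of 13 genes, *Gad2*, *Slc32a1*, *Dlx2* and *Dlx6*) summed to 23.2 to 104.3 CPM in NSD and 15.6 to 48.5 CPM in SD, and those of septal or other regions (4 of 5 genes, *Zic1*, *Zic2*, *Avpr1a* and *Trh*) to 5.88 to 29.6 CPM in NSD and 3.90 to 18.7 CPM in SD. Of the 6 GABAergic transcripts 5 had an unadjusted p below 0.05 and 0 were called by edgeR or DESeq2, and of the 4 septal transcripts 4 had such a p, with 0 called by edgeR and 1 by DESeq2. Such a p was found for 4.45% of all transcripts tested but for 38.6% of the named ones, the only ones that could be counted here. *Zic1*, *Zic2* and *Avpr1a* had lower medians in SD, whereas *Trh* ranged from 0.749 to 1.20 CPM in NSD and from 0.127 to 15.4 CPM in SD, where SD3 was highest. The markers of excitatory neurons (2 of 7 genes) differed in pattern. The named transcript of *Camk2a*, the gene whose promoter drives Cre, was scarce and lower in every SD library (1.48 to 2.31 CPM) than in every NSD library (2.32 to 2.76 CPM), with SD3 and NSD2 almost level. Complete separation with SD lower was seen in 0.361% of all transcripts tested, and nothing is read from it. *Neurod2* had 301.9 to 386.4 CPM in NSD and 282.8 to 451.9 CPM in SD. Of the 2 excitatory transcripts, 1 had an unadjusted p below 0.05. As the only oligodendrocyte marker named of 6, *Mbp* had 167.4 to 194.8 CPM in NSD and 178.2 to 229.8 CPM in SD, with an unadjusted p below 0.05. No transcript of the 5 astrocyte, 5 microglia and 3 endothelial markers was named. Where a level differs, more cells (or tagged ribosomes) of a type and more transcript per cell cannot be told apart in these libraries.

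*Prkab1*, which encodes beta1, was lower after sleep deprivation. Its level was 21.9 CPM in NSD2, 25.0 in NSD3, 23.3 in NSD4, 26.1 in NSD5 and 24.4 in NSDB. In the SD libraries it was 18.7 CPM in SD1, 19.4 in SD2, 18.9 in SD3, 22.0 in SD4, 19.4 in SD6 and 20.2 in SDD. Hence 5 of the 6 SD libraries lay below every NSD library, and the groups met only where SD4, the highest SD library, was level with NSD2, the lowest NSD library. Complete separation with SD lower was seen in 0.361% of the 29599 transcripts tested, a background from which nothing is read for a transcript chosen on this difference. The means were 24.1 ± 1.59 CPM in NSD against 19.8 ± 1.22 CPM in SD, a change of -18.2%, and the log2 fold change was -0.29 (standard error 0.0843). With edgeR's TMM factors in place of upper-quartile factors the groups did not overlap, at 23.0 to 25.0 CPM in NSD and 18.8 to 21.1 CPM in SD. With raw totals they did not overlap either, at 23.4 to 26.0 CPM in NSD and 17.8 to 22.3 CPM in SD. The share of all transcripts that separate under either of these scalings was not computed, and nothing is read from the separation.

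*Prkab2* uc008qpb.1, the transcript with the full coding part of beta2, was higher after sleep deprivation. It stood at 13.9 CPM in NSD2, 16.1 in NSD3, 13.4 in NSD4, 17.3 in NSD5 and 13.7 in NSDB. It reached 18.0 CPM in SD1, 25.4 in SD2, 23.1 in SD3, 22.7 in SD4, 24.3 in SD6 and 26.3 in SDD. Every SD library lay above every NSD library, but SD1 exceeded the highest NSD library, NSD5, only 1.04-fold, whereas the other SD libraries were well apart from the NSD range. Such separation with SD higher occurred in 0.459% of the transcripts tested, and again nothing is read from it. The mean was 14.9 ± 1.71 CPM in NSD against 23.3 ± 2.93 CPM in SD, 1.57-fold higher, with a log2 fold change of 0.65 (standard error 0.108). With TMM factors the lowest SD value was 19.6 CPM and the highest NSD value 16.6 CPM, and with raw totals they were 20.3 and 15.9 CPM. For these scalings too, the share of all transcripts that separate was not computed.

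*Prkab2* uc008qpc.1, the retained intron transcript, was close to the limit of detection. Its counts were 20, 12, 18, 7 and 15 in NSD2, NSD3, NSD4, NSD5 and NSDB, and 15, 13, 22, 10, 2 and 20 in SD1, SD2, SD3, SD4, SD6 and SDD. The groups overlapped almost entirely, and the highest and the lowest count were both in SD libraries. Its level was 0.592 ± 0.202 CPM in NSD against 0.517 ± 0.270 CPM in SD, with a log2 fold change of -0.20 (standard error 0.398). The standard error exceeded the change, so a difference was not detectable at this depth in either direction. Without SD6, the library with 2 counts, the log2 fold change was 0.03. Whether it responded differently from *Prkab2* uc008qpb.1 was not tested, because *Prkab2* uc008qpb.1 was chosen on its response.

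**Figure D2:**
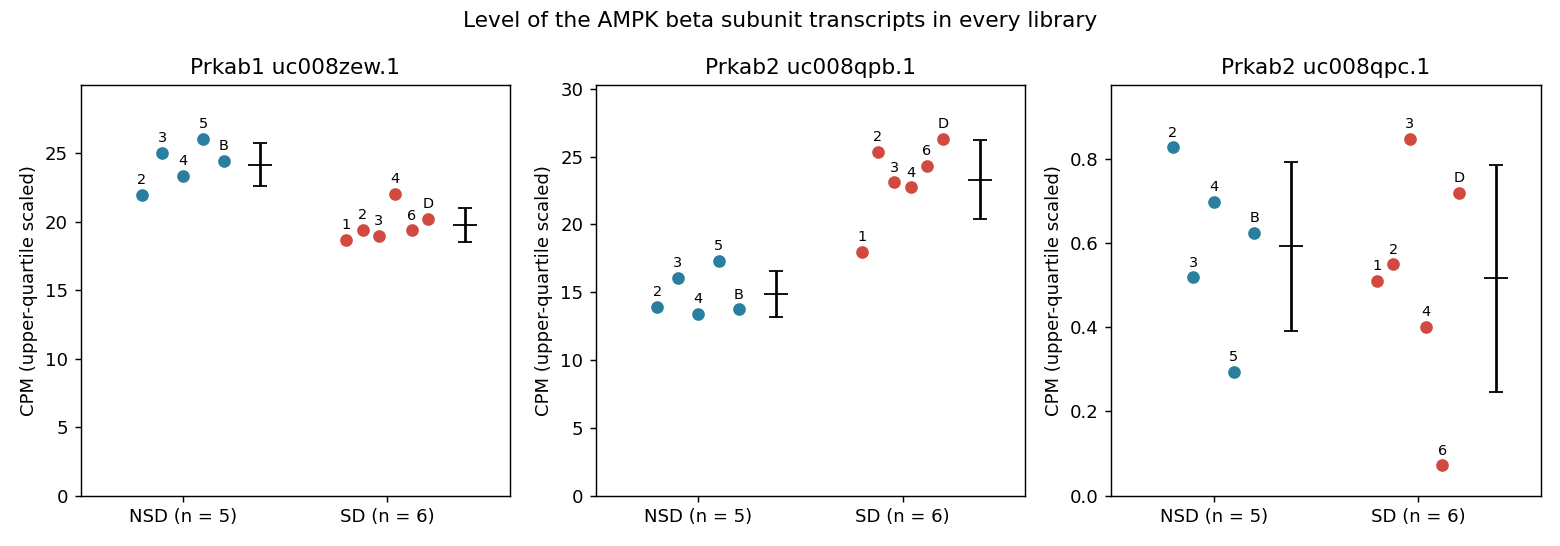
CPM of *Prkab1*, *Prkab2* uc008qpb.1 and *Prkab2* uc008qpc.1 in each of 5 NSD and 6 SD libraries, with the replicate label beside each point and the mean and standard deviation in black; each panel has its own scale from 0. *Prkab1* averaged 24.1 CPM in NSD and 19.8 CPM in SD, *Prkab2* uc008qpb.1 averaged 14.9 and 23.3 CPM with no overlap, and *Prkab2* uc008qpc.1 stayed below 1 CPM in every library.

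The spread between libraries of 1 group was compared with the error of counting alone. *Prkab1* had between 458 and 622 counts, and its coefficient of variation was 6.57% in NSD and 6.16% in SD, against 4.14% and 4.37% for counting error. *Prkab2* uc008qpb.1, with 330 to 733 counts, varied more, by 11.5% in NSD and 12.6% in SD against 5.27% and 4.02%. For *Prkab2* uc008qpc.1 the values were 34.0% and 52.2%, of which counting error would give 26.4% and 27.1%. In edgeR's fit, the biological coefficient of variation of *Prkab1* was 10.7% and that of *Prkab2* uc008qpb.1 13.3%, below the 14.5% and 14.8% of the trend at their abundance, while *Prkab2* uc008qpc.1 at 37.7% lay above its trend of 31.0%.

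The number of *Prkab2* uc008qpb.1 counts for each *Prkab1* count covers only reads assigned to these transcripts, not the whole beta2 and beta1 messages. Ambiguous reads, which were not counted, took 37.2% to 52.0% of a library. The ratio does not depend on how libraries are scaled. In the NSD libraries it was 0.636 in NSD2, 0.642 in NSD3, 0.574 in NSD4, 0.664 in NSD5 and 0.563 in NSDB. In the SD libraries it was 0.964 in SD1, 1.31 in SD2, 1.22 in SD3, 1.03 in SD4, 1.26 in SD6 and 1.30 in SDD. *Prkab1* had more counts than *Prkab2* uc008qpb.1 in every NSD library and in SD1, and fewer in the other 5 SD libraries. The mean ratio was 0.616 ± 0.0446 (n = 5) in NSD against 1.18 ± 0.147 (n = 6) in SD, 1.92-fold higher. On the log2 scale the mean ratio was -0.70 ± 0.11 in NSD against 0.23 ± 0.19 in SD, a difference of 0.93 (standard error 0.0899). The NSD ratios spanned 1.18-fold and the SD ratios 1.36-fold, and the lowest SD ratio was 1.45-fold the highest NSD ratio. The exact 95% binomial intervals, which cover counting error only, reached up to 0.753 in the NSD libraries (NSD5) and down to 0.854 in the SD libraries (SD1). Nothing is read from this gap, because the ratio was chosen with its difference between groups known.

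**Figure D3:**
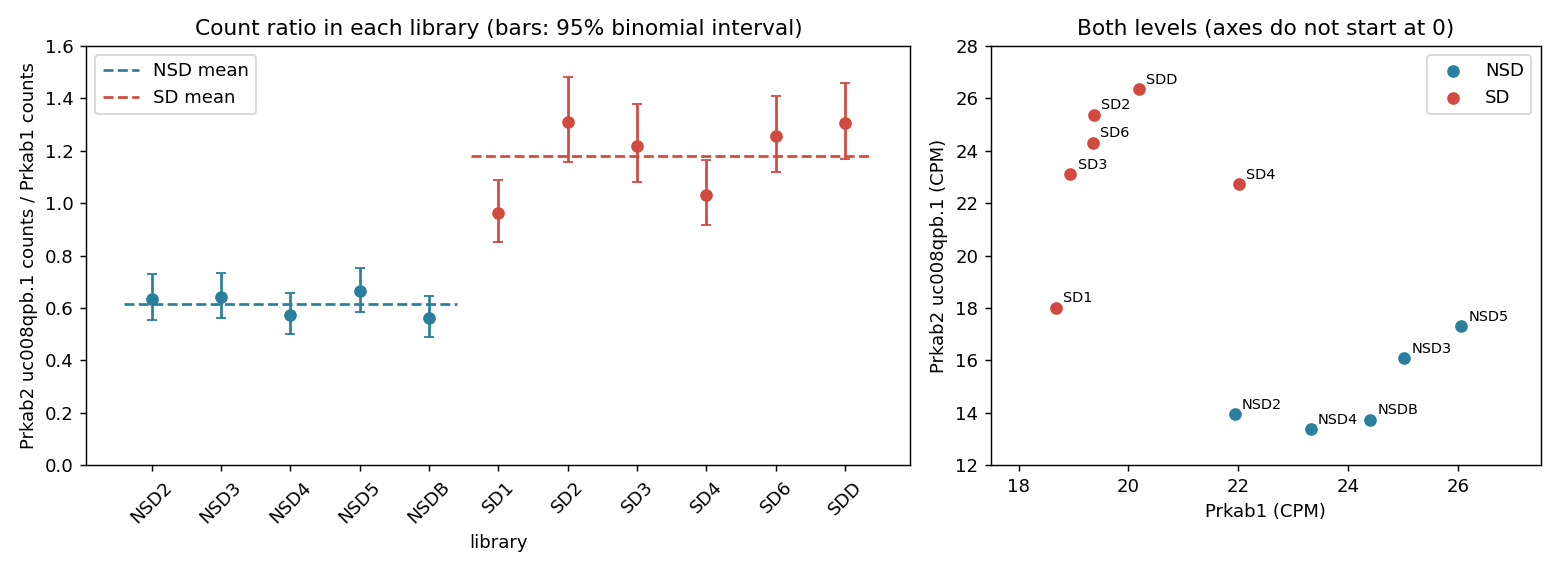
Left, counts of *Prkab2* uc008qpb.1 divided by counts of *Prkab1* in each library, with exact 95% binomial intervals and dashed group means; right, the CPM of both transcripts in each library, on axes that do not start at 0. The NSD libraries sit between 0.563 and 0.664 and the SD libraries between 0.964 and 1.31, and SD1 and SD4 are the SD libraries with the lowest ratios.

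The lowest SD ratios were those of SD1 and SD4. With upper-quartile factors SD1 had the lowest *Prkab2* uc008qpb.1 level of its group and SD4 the highest *Prkab1* level, but with raw totals the 2 libraries changed places. SD1 had the largest share of reads outside transcripts among the SD libraries, 21.1%, and SD4 the smallest, 9.97%, and NSD2, at 27.6%, had the median ratio of its group. Without NSD2, NSD4 and SD1, the 3 libraries with the largest such shares, the log2 difference of the ratio was 0.97. The GABAergic marker sum moved with the groups as well. It was 23.2 CPM in NSD2, 49.5 in NSD3, 89.7 in NSD4, 41.0 in NSD5 and 104.3 in NSDB, and 20.1 CPM in SD1, 48.5 in SD2, 15.6 in SD3, 17.4 in SD4, 18.4 in SD6 and 20.4 in SDD. NSDB and NSD4, with the highest sums, had the lowest ratios of all libraries, while SD2, with the highest sum of its group, had the highest ratio. NSD2 and NSD5, whose sums lay within the SD range, had ratios of 0.636 and 0.664. The part of the marker difference in the ratio was not tested. Among replicate numbers found in both groups, the log2 ratio was higher in SD by 1.04 for number 2, by 0.93 for number 3 and by 0.85 for number 4.

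Within the 6 SD libraries, a relation between the log2 CPM of *Prkab1* and that of *Prkab2* uc008qpb.1 could not be shown. Pearson's r was 0.302 (two-sided exact permutation test, p = 0.51) and Spearman's rho was 0.429 (exact permutation test, p = 0.419), and both had an adjusted p of 0.51 over these 2 measures. Without SD4 and SDD, the libraries farthest from the median of *Prkab1*, r was 0.914 over 4 libraries, and without SD1 it turned to -0.286. The direction depended on the scaling, with r = -0.54 by TMM factors and r = -0.22 by raw totals. It was not computed in the 5 NSD libraries.

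The transcripts whose deviations from the group means were most like those of each beta subunit transcript were sought among the named transcripts with a mean of at least 10 counts (2240 for *Prkab1* and 2239 for *Prkab2* uc008qpb.1), by Pearson's r of log2 CPM centred within each group over the 11 libraries. This is a description of shared variation within groups, and libraries share their depth and scaling factor with every transcript. The closest to *Prkab1* were *Rnf31* (r = 0.944), which encodes a ubiquitin ligase, *Phf12* (0.935), *6530402F18Rik* (0.919), *Mir22hg* (0.915) and *Coro7* (0.914). With TMM factors these values were lower, from 0.566 for *Mir22hg* to 0.861 for *Rnf31*. The closest to *Prkab2* uc008qpb.1 were *Atad3a* (0.932), which encodes a mitochondrial ATPase, *Apip* (0.927), an enzyme of methionine salvage, *Fbl* (0.917), the nucleolar fibrillarin, *Anks1b-204* (0.907) and *Gadd45g* (0.902). With TMM factors they remained between 0.811 and 0.850. The median r over all 19032 other transcripts was 0.273 for *Prkab1* and 0.279 for *Prkab2* uc008qpb.1, but -0.00478 and 0.0132 with TMM factors. The most opposite named transcripts were *Mir3093* (-0.922), *Dnajc21-204* (-0.884) and *Slc7a10* (-0.876) for *Prkab1*, and *Rps6kb1* (-0.877), *Daglb* (-0.865) and *Alkbh3* (-0.86) for *Prkab2* uc008qpb.1, all at 1.03 to 5.69 CPM on average. With TMM factors r was between -0.56 and -0.30 for the first 3 and between -0.85 and -0.78 for the last 3.

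The other genes of the pathway were looked up in a list of 56: AMPK subunits, upstream kinases and their partners, regulators, targets, and genes of glycogen metabolism. Only 8 had a named transcript, and the named transcripts were enriched for a low p, as given above for the markers. By edgeR's quasi-likelihood test over all transcripts, 0 of the 8 passed FDR < 0.05, where the background was 0.0507%, and DESeq2 called 0 as well. With raw totals 3 of the 8 passed, against a background of 0.916%, and with edgeR's filterByExpr 1 passed, against 0.993%. At an unadjusted p below 0.05 there were 2, both higher in SD. Such a p was found for 4.45% of all transcripts tested and for 38.6% of the named ones. Of the 8 transcripts, 5 were higher and 3 lower, with a median log2 fold change of 0.12 against 0.01 over all transcripts and 0.14 over the 2259 named ones.

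Among the partner subunits, *Prkag2*, which encodes the nucleotide-binding gamma2, had 49.8 to 61.9 CPM in NSD (median 55.0) and 55.5 to 70.5 CPM in SD (median 64.9). The groups overlapped, with a log2 fold change of 0.20 (FDR = 1.0 from edgeR's test; unadjusted p = 0.0302). *Prkaa2*, which encodes the catalytic alpha2, had 7.10 ± 1.22 CPM in NSD against 7.29 ± 0.949 CPM in SD, a log2 fold change of 0.04. The transcripts of *Prkaa1*, *Prkag1* and *Prkag3* had no name and were not analysed here. None of the named partner subunits passed the test in either direction.

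Upstream of AMPK, *Camkk1*, a kinase activated by calcium and calmodulin, had 538.4 ± 59.5 CPM in NSD against 622.0 ± 80.2 CPM in SD, a log2 fold change of 0.21. *Strada*, the pseudokinase partner of the AMPK kinase LKB1, had 2.12 ± 0.316 CPM in NSD against 1.7 ± 0.147 CPM in SD, a log2 fold change of -0.32. The list of regulators was represented by *Ppm1f*, a protein phosphatase, with 187.3 to 224.5 CPM in NSD and 192.0 to 266.1 CPM in SD and a log2 fold change of 0.25 (FDR = 0.981 from edgeR's test; unadjusted p = 0.024). It passed FDR < 0.05 when 10 counts were required in every library (FDR = 0.00893 from edgeR's test), a filter under which 1.97% of 15757 transcripts were called. *Foxo1*, a transcription factor and the single named target, had a log2 fold change of -0.20, with 83.4 ± 11 CPM in NSD against 72.8 ± 8.76 CPM in SD, and its FDR from edgeR's test was 1.0 but 0.0233 with that filter.

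The glycogen genes, listed because the beta subunit binds glycogen, gave 2 named transcripts, and neither passed the test. *Pygb*, the brain glycogen phosphorylase, had 433.9 ± 50.4 CPM in NSD against 509.5 ± 87.0 CPM in SD, a log2 fold change of 0.23. *Ppp1r3c*, which targets a phosphatase to glycogen, had 26.1 ± 3.05 CPM in NSD against 25.9 ± 1.7 CPM in SD, a log2 fold change of -0.01.

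**Figure D4:**
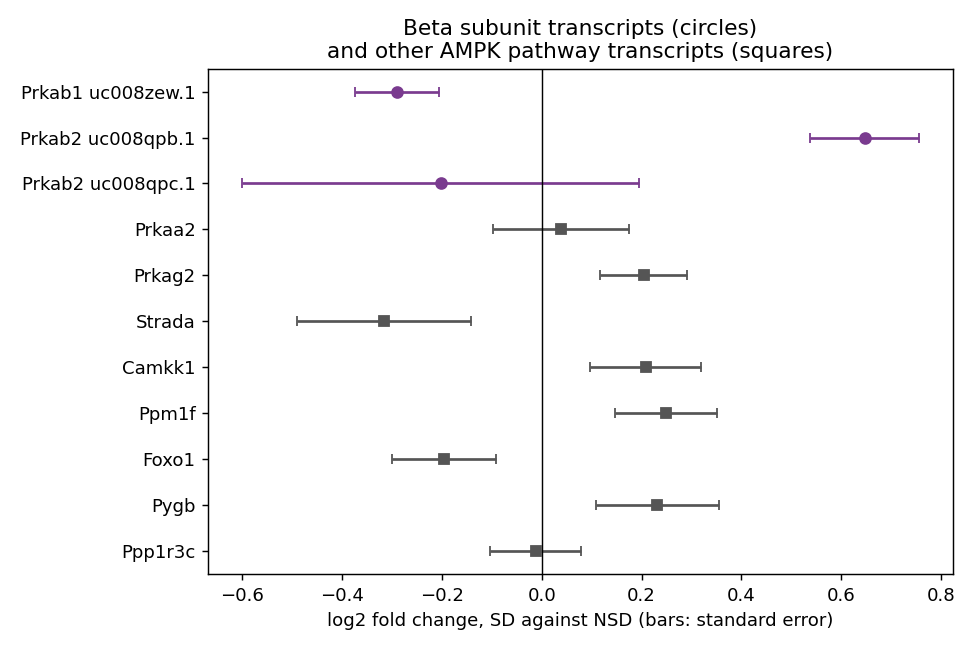
Log2 fold change of SD against NSD, with its standard error, for the beta subunit transcripts (circles) and the 8 other named pathway transcripts (squares), from the edgeR fit over all transcripts in 5 NSD and 6 SD libraries. *Prkab2* uc008qpb.1 lies at 0.65 and *Prkab1* at -0.29, and the other transcripts lie between -0.32 and 0.25.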

How the data were processed

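Per the labels and the study's methods, the authors trimmed reads with Trimmomatic 0.36, aligned them to mm10 with STAR 2.7.5 and deposited raw HTSeq counts (intersection-nonempty, ambiguous reads not counted) for 63244 UCSC transcripts and 5 tallies of uncounted reads. The tallies were left out here, and transcripts held 22.8% to 31.9% of a library's reads. Libraries were made with a stranded total RNA kit, and the strand setting of the counting is not given in the sources used here. Groups came from sample titles, and libraries within a group differed beyond sampling noise (chi-square per degree of freedom at least 2.66). The counts carry no gene names. Besides the 3 transcripts identified by the rule, 2259 transcripts in total were named by a unique match of the statistics listed in the study's supplementary tables to a refit, used as a key only.

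A minimum of 1 count in 5 or more libraries left 29599 transcripts, which were fitted in edgeR 4.0.16 (R 4.3.3) by its quasi-likelihood test (two-sided) with upper-quartile factors, and p-values were adjusted by the Benjamini-Hochberg method (FDR). Log2 CPM used a prior count of 2. DESeq2 1.42.0 was an alternative. On simulated counts of 29083 transcripts in 5 against 6 libraries, 197 of 200 transcripts changed by 1 on the log2 scale were called, and 6 unchanged ones. The changed transcripts had a mean of at least 5 CPM, and the noise was drawn independently for each transcript. Smaller changes, and variation shared by the transcripts of a library, were not simulated. The p-values set a difference between groups against the spread between these libraries. Nothing states that pools are independent beyond separate labels, and without independence the p-values could be too small. The genes named are the 3 beta subunit transcripts, every listed pathway gene with a named transcript (1 listed gene is not reported here), and the 5 most and 3 least similar named transcripts. The members and lists were chosen with earlier results of these data known. Alternatives covered scaling, filters, covariates, a replicate block and each library left out. Python 3.11.15 with matplotlib 3.10.9 drew the figures.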

Additional observations from a re-analysis of the deposited data

How the results depend on the processing

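The log2 fold changes of *Prkab1* (-0.32 to -0.22), *Prkab2* uc008qpb.1 (0.60 to 0.72) and *Prkab2* uc008qpc.1 (-0.23 to -0.04) moved by less than the standard deviation between libraries. These ranges cover the other scalings, filters, covariates and tools, and the 6 libraries with shared numbers, with and without the replicate block. Without 1 library the log2 fold changes were -0.32 to -0.26, 0.61 to 0.71 and -0.40 to 0.03. *Prkab2* uc008qpc.1 was not tested with 10 counts in every library. The log2 change of the ratio was 0.90 to 0.99 without 1 library and 0.94 with the replicate block over numbers 2, 3 and 4. The deviations of same-numbered libraries correlated at -0.466, -0.503 and -0.593. Differently numbered libraries were not compared in this way, so whether the numbers pair libraries was not tested. With that block 6 transcripts were called and without it 3 in the same 6 libraries.

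Of all transcripts, 15 were called, 13 of them higher. The count was 62 (TMM), 271 (raw totals, 204 higher), 135 (DESeq2, 93 higher), 33 (1 count in 1 library, 11 higher), 191 (filterByExpr, 132 higher), 311 (10 counts in every library, 200 higher), 167 (share of reads outside transcripts as a covariate, 85 higher) and 8 (label series as a covariate). It was 1 to 69 without 1 library, lowest without NSDB and highest without SD1, and also moved by over 1.5 times without NSD4 (2), SD3 (9), SD6 (7) or SDD (3). Without SD2 7 of 19 calls were higher, and without NSD2 7 of 13. Of the 8 other pathway transcripts, 0 were called without any 1 library, 3 with raw totals (*Camkk1*, *Ppm1f* and *Foxo1*; 0.916% of all 29599 called), 1 with filterByExpr (*Ppm1f*; 0.993% of 19228) and 2 with 10 counts in every library (*Ppm1f* and *Foxo1*; 1.97% of 15757). Near 0, the direction of *Prkaa2* turned with the share covariate (-0.0147) and that of *Ppp1r3c* in the 6 libraries with shared numbers (0.12 with the replicate block and 0.12 without it). Without 1 library, *Prkaa2* ranged from -0.0274 to 0.13 and *Ppp1r3c* from -0.0485 to 0.0574. Within SD, r of *Prkab1* and *Prkab2* uc008qpb.1 turned to -0.541 (TMM) and -0.222 (raw totals) and ranged from -0.286 (without SD1) to 0.816 (without SD4). Of the 10 most similar named transcripts, 4 stayed by Spearman's rho and 6 with TMM factors. The causes were not tested. Settings for similarity by TMM, for the relation within SD, and without NSD2, NSD4 and SD1 were chosen after seeing the data.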
